A study of Mus musculus with 6 samples.

Results

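The genes described here are 49 genes of the antioxidant defence of mouse cells: the transcription factor Nrf2 and its partners, Nrf2 target genes, glutathione transferases and peroxidases, the thioredoxin system, superoxide dismutases and the enzymes that supply NADPH. They were chosen by name, with earlier results of these data known. Of these genes, 46 had a probe set that names a single gene, among 19936 genes in all. Prdx5, Prdx6 and G6pdx were not analysed here. Where a gene had several such probe sets, the brightest on average stood for it.

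RNA was measured on Affymetrix arrays in 2 groups of cells of a Tet-off line derived from mouse embryonic fibroblasts (MEFs), where transgenes are switched by a transactivator that tetracycline controls. The HA-Fbxl10 group (3 arrays) carried an HA-tagged Fbxl10 cDNA, brought in with a plasmid for hygromycin resistance, and came from clones picked for expressing it. The control group (3 arrays) was the untransfected Tet-off line. Fbxl10 is now named Kdm2b, a histone demethylase that binds unmethylated CpG-rich DNA. How many clones were used is not stated, and there was no group with an empty plasmid, so transfection, selection, clone and Fbxl10 itself cannot be told apart. The RNA samples are called independent, without a word on separate cultures, so p-values cover the spread among these samples alone, and that spread may be technical.

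Nrf2, encoded by Nfe2l2, is held in the cytoplasm and marked for degradation by Keap1, and oxidants or electrophiles that modify Keap1 let it accumulate. In the nucleus it pairs with small Maf proteins and binds antioxidant response elements, which drive genes for glutathione synthesis, conjugation of reactive compounds, thioredoxin reduction and NADPH supply. Bach1 competes for the same elements as a repressor. Since Nrf2 is controlled mostly through its protein, its transcript level says little about its activity.

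Levels are log2 values made by RMA, which corrects background, equalises the distribution of values between arrays and summarises the probes of a probe set. A change shared by most genes is therefore not visible, and fold changes of dim genes are compressed. Differences are log2 values of HA-Fbxl10 minus those of control, with limma's moderated standard error (SE), and a gene passed the test at an adjusted p below 0.05 after Benjamini-Hochberg adjustment over all 19936 genes. Kdm2b was 5.03-fold higher in HA-Fbxl10 cells (9.70 ± 0.10 in HA-Fbxl10 cells and 7.37 ± 0.08 in control cells, SD, n = 3 each). Over all genes, arrays of different groups correlated at 0.991 to 0.992 and arrays of the same group at 0.997 to 0.998. Of 12 fibroblast markers 9 lay above the median level of all genes (5.36), with collagens, vimentin and fibronectin among them, while Thy1, Dcn and Lum lay below it. Col3a1 (-0.79), Pdgfra (-0.30) and Prrx1 (-0.49) were lower in HA-Fbxl10 cells, and the part of this in the results below was not tested. Of 8 markers each, 1 macrophage, 1 epithelial, 0 endothelial and 1 skeletal muscle marker lay above that median, and 0 of these 32 markers passed limma's test, with 1 at an unadjusted p under 0.05. In bulk RNA, fewer cells that carry a transcript and less transcript per cell cannot be told apart.

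The matches to the response element are shown because Nrf2 acts on its targets through it. RefSeq start-site windows of 300 bases (250 before and 50 after the start, assembly GRCm38.p6) were found for 40 of the 46 members and searched on both strands for TGACNNNGC, the core of the antioxidant response element. A match was found for 10 members (25% of 40), against 15.2% of the 15614 tested genes with a window and 16.7% of the 8060 among them above the median level. The matches follow, 5′ to 3′ on the strand that carries the core, with the core in capitals and up to 6 bases on each side.

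Gclm: gagagtTGACGGTGCgcccgg
Gstm5: gcccacTGACCACGCggaggg
Me1: ccgccgTGACTCAGCgcttct
Mgst1: gcctccTGACCGTGCcaagcc
Nfe2l2: cccaccTGACTCCGCcatgcc
Pgd: cagagcTGACATTGCactgat
Prdx1: gggggaTGACTCAGCgctttc
Sod1: tgagtcTGACCACGCccacct
Srxn1: tcactcTGACCTAGCtgccca
Txnrd1: tcagaaTGACAAAGCaaaaat

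The cores of Me1 and Prdx1 both read TGACTCAGC, which also holds the AP-1 element TGANTCA. That element, searched on both strands, was in a window of 6 of the 40 members (15%), against 8.08% of tested genes with a window and 5.53% of those above the median level. The core of Gstm5 and that of Sod1 were the same as each other, and the other cores each occurred once. These genes did not move together. Of the members with a match, Me1 and Gclm rose, Sod1, Pgd and Txnrd1 fell, and Gstm5, Mgst1, Nfe2l2, Prdx1 and Srxn1 did not pass the test. A match was found for 2 of 7 members that rose, 3 of 14 that fell and 5 of 19 that did not pass the test, among those with a window. The windows of Nqo1 and Txnip, the members with the largest falls, hold none, which says only that these letters are not within that window.

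The whole windows are printed for the 3 members with a match that changed most, with the core in capitals. That of Me1, malic enzyme, lies at chr9:86695865-86696164 (minus strand) with the core beginning 6 bases before the start and running past it. That of Gclm, the modifier subunit of glutamate-cysteine ligase, lies at chr3:122245307-122245606 (plus strand) with the core on the opposite strand, its leftmost base 134 bases before the start. That of Sod1, the copper-zinc superoxide dismutase, lies at chr16:90220512-90220811 (plus strand) with the core on the opposite strand, its leftmost base 56 bases before the start.

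Me1: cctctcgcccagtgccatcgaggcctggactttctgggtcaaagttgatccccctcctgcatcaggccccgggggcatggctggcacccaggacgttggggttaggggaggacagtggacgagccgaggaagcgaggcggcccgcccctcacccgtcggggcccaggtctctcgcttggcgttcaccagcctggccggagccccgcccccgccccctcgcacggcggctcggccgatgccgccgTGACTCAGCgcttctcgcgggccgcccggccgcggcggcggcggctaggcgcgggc
Gclm: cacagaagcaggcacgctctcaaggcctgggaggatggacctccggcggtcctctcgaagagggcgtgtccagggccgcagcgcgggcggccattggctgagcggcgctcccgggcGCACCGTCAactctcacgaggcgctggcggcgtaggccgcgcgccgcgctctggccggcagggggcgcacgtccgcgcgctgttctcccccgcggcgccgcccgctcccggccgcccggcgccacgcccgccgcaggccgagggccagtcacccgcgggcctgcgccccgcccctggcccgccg
Sod1: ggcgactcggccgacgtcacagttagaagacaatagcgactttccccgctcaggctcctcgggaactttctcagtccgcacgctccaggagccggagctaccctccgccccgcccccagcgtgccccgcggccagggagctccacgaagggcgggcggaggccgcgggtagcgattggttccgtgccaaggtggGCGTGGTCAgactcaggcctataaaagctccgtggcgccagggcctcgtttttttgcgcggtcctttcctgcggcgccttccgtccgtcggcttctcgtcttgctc

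All 3 windows are rich in CG pairs, the dinucleotide that the CXXC domain of Kdm2b binds when unmethylated. The richest window of each member held a median of 20 CG pairs among members that rose, 20 among those that fell and 19 among those that did not pass the test, against 16 over tested genes and 23 over tested genes above the median level.

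Of the 46 measured members, 8 rose, 15 fell and 23 did not pass the test. The share past the test was 50% (23 of 46), against a background of 21.1% of all genes, of which 10.5% were higher and 10.6% lower. Brighter genes pass more often, and among genes above the median level the background was 37.0%, with 19.2% higher and 17.8% lower. All 23 members that passed were among the 40 above that level (57.5%). The arrays of the groups did not overlap for 30 members (65.2%), against 36.0% of all genes and 57.9% of genes above the median level. The median log2 fold change of the members was -0.08, close to that of all genes (-0.00), while the median size of change without regard to sign was 0.28 for members, 0.11 for all genes and 0.18 for genes above the median level. SEs of members ran from 0.06 to 0.15. The 6 dim members, Gstt2, Gstk1, Mgst1, Gpx3, Gpx7 and Sod3, lay below the median level of all genes, where a change would be compressed. None of those 6 passed limma's test, and Sod3 had an unadjusted p of 0.025.

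**Figure D1:**
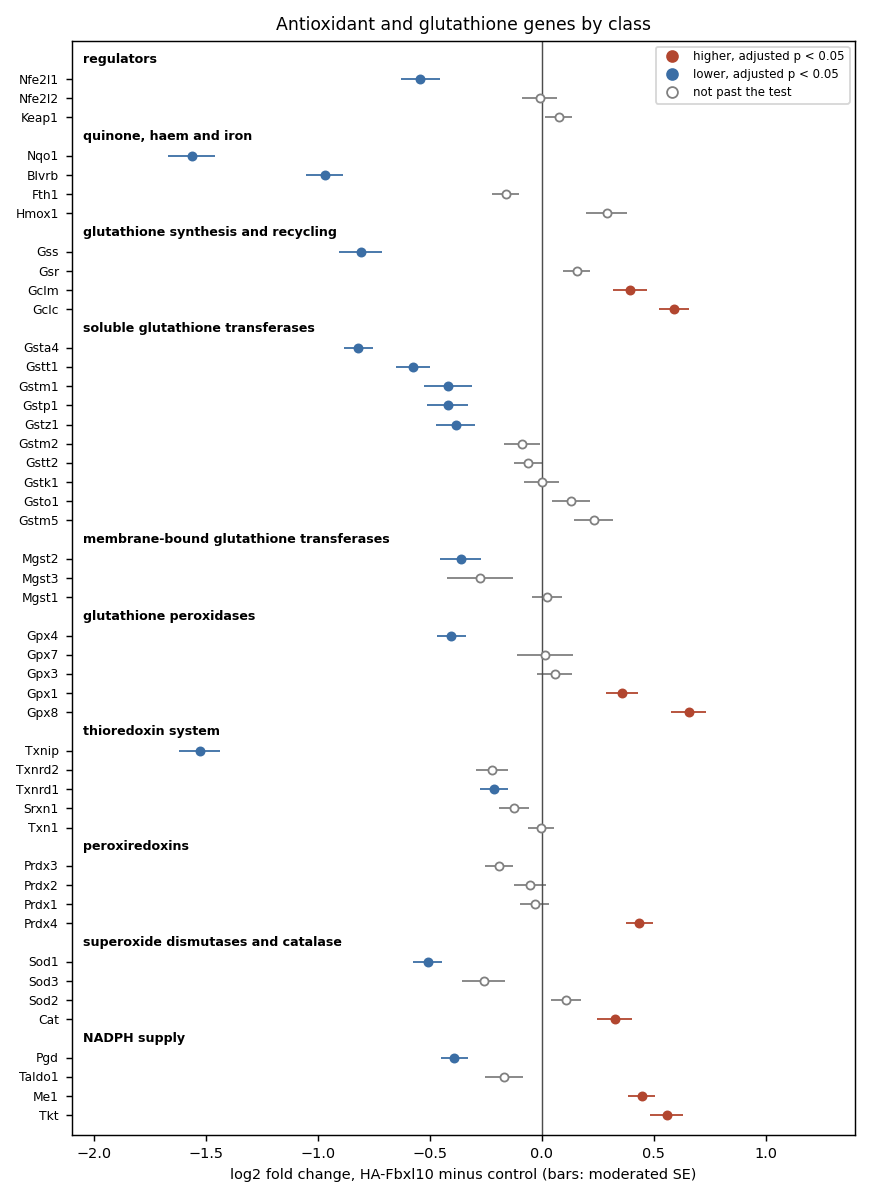
Log2 fold change (x axis, HA-Fbxl10 minus control, bars moderated SE) of the 46 measured members, grouped by class down the page. Filled red points are the 8 members that rose and filled blue points the 15 that fell. Every class holds open points, and glutathione synthesis, peroxidases, superoxide handling and NADPH supply hold both red and blue points.

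Among the regulators, Nfe2l2 and Keap1 did not pass the test and Nfe2l1 fell. Nfe2l2, which encodes Nrf2 itself, had levels of 8.87, 8.82 and 8.81 in HA-Fbxl10 arrays, against 8.94, 8.69 and 8.90 in control arrays. The groups overlapped, and the difference was -0.01 (95% interval -0.18 to 0.17, limma adjusted p = 0.958). Keap1, the adaptor that delivers Nrf2 to ubiquitination, had 8.40, 8.38 and 8.45 in HA-Fbxl10 arrays, against 8.30, 8.38 and 8.32 in control arrays. Its difference of 0.07 had an interval of -0.06 to 0.21 (limma adjusted p = 0.485). Nfe2l1, a relative of Nrf2 known for driving proteasome subunit genes, had 8.92, 9.00 and 9.15 in HA-Fbxl10 arrays, against 9.43, 9.65 and 9.62 in control arrays. All 3 HA-Fbxl10 arrays lay below all control arrays, and the difference was -0.54 ± 0.09 (SE, limma adjusted p = 0.0020).

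The quinone, haem and iron genes held the largest fall of all members. Nqo1, the quinone reductase that is the usual readout of Nrf2 activity, had 5.82, 6.03 and 5.97 in HA-Fbxl10 arrays, against 7.62, 7.28 and 7.62 in control arrays. It was 2.96-fold lower (-1.56 ± 0.10, SE, limma adjusted p = 1.6e-05). The groups stood far apart, although control replicate 2 was lower than the other control arrays. Blvrb, a biliverdin and flavin reductase, had 6.98, 6.74 and 6.87 in HA-Fbxl10 arrays, against 7.92, 7.72 and 7.85 in control arrays, and was 1.96-fold lower (-0.97 ± 0.08, limma adjusted p = 7.1e-05). Hmox1, the haem oxygenase that makes biliverdin, had 9.47, 9.46 and 9.27 in HA-Fbxl10 arrays, against 9.24, 8.94 and 9.14 in control arrays. Its arrays did not overlap, but the difference of 0.29 ± 0.09 missed the threshold (limma adjusted p = 0.0522). Hmox1 passed without control replicate 1 (0.0397) or HA-Fbxl10 replicate 3 (0.0455). With the median of its chromosomal neighbours (0.28) subtracted, the difference of Hmox1 was 0.01 (limma adjusted p = 0.970). Fth1, the ferritin heavy chain that stores iron, had a difference of -0.16 with non-overlapping arrays and also missed the threshold (limma adjusted p = 0.0842).

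Glutathione synthesis genes went both ways along the pathway. Gclc, the catalytic subunit of glutamate-cysteine ligase, which makes the rate-limiting step, had 8.96, 8.96 and 9.04 in HA-Fbxl10 arrays, against 8.45, 8.31 and 8.43 in control arrays. It was 1.50-fold higher (0.59 ± 0.07, SE, limma adjusted p = 0.00033). Gclm, the modifier subunit of the same enzyme, had 9.65, 9.59 and 9.55 in HA-Fbxl10 arrays, against 9.29, 9.08 and 9.24 in control arrays, a difference of 0.39 ± 0.07 (limma adjusted p = 0.0047). Both subunits of the first enzyme thus rose with no overlap between groups. Gss, glutathione synthetase, which adds glycine in the second step, had 7.62, 7.96 and 7.68 in HA-Fbxl10 arrays, against 8.60, 8.47 and 8.62 in control arrays. It was 1.75-fold lower (-0.81 ± 0.10, limma adjusted p = 0.00039), and HA-Fbxl10 replicate 2 was the least low of its group. Gsr, the reductase that regenerates reduced glutathione, had a difference of 0.15 (95% interval 0.02 to 0.29) and did not pass after adjustment (limma adjusted p = 0.111).

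**Figure D2:**
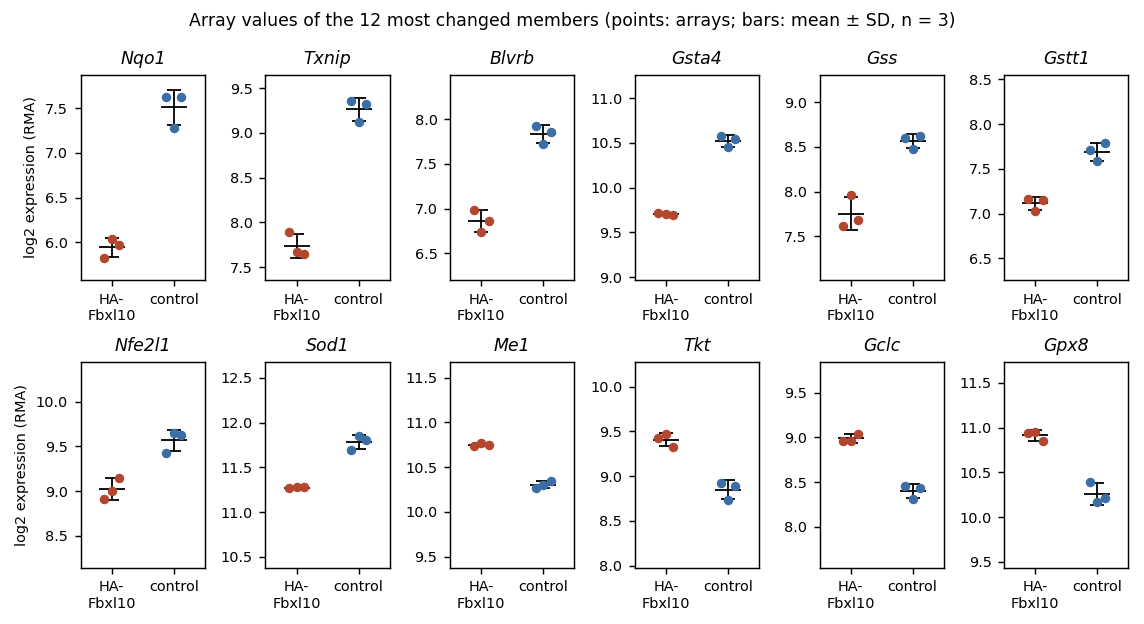
Log2 expression (y axis, each panel spanning the same number of log2 units) in each array of the 12 members with the largest changes past the test. Points are arrays, and the bar is the mean ± SD of 3 arrays. HA-Fbxl10 stands left of control in each panel, and the groups do not overlap for any of the 12.

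Of the 10 soluble glutathione transferases, which join glutathione to reactive compounds, 5 fell and 5 did not pass the test. Gsta4, known for conjugating the lipid peroxidation product 4-hydroxynonenal, had 9.71, 9.71 and 9.69 in HA-Fbxl10 arrays, against 10.58, 10.45 and 10.54 in control arrays. It was 1.76-fold lower (-0.82 ± 0.06, SE, limma adjusted p = 3.8e-05), and the HA-Fbxl10 arrays differed little from each other. Gstt1, a theta class transferase, had 7.16, 7.03 and 7.16 in HA-Fbxl10 arrays, against 7.71, 7.58 and 7.79 in control arrays (-0.58 ± 0.08, limma adjusted p = 0.00066). Gstp1, the pi class enzyme, had 10.63, 10.59 and 10.41 in HA-Fbxl10 arrays, against 11.12, 10.83 and 10.93 in control arrays (-0.42 ± 0.09, limma adjusted p = 0.010). All 3 fell with no overlap between groups. The 2 probe sets that name both Gstp1 and its close copy Gstp2 were lower by 0.49 and 0.48, so the 2 genes may not be separated by any of these probes. Gstm1, a mu class enzyme with close copies beside it, had 7.50, 7.34 and 7.20 in HA-Fbxl10 arrays, against 7.92, 7.56 and 7.81 in control arrays. Its difference of -0.42 ± 0.11 passed with all arrays (limma adjusted p = 0.020). The adjusted p was 0.0783 with control replicate 1 left out, 0.0521 with control replicate 3, 0.056 with HA-Fbxl10 replicate 2 and 0.0823 with HA-Fbxl10 replicate 3, and the call ended each time.

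Of the other mu class genes, Gstm3, from the list of further genes, fell by 0.54 ± 0.09 (limma adjusted p = 0.0025) with levels of 4.95 in HA-Fbxl10 cells and 5.49 in control cells. It was named after its value was seen. Gstm2 differed by -0.09 (95% interval -0.27 to 0.09) and Gstm5 by 0.23 (0.04 to 0.42, limma adjusted p = 0.0944, and 0.0303 without control replicate 1). Whether Gstm1 and Gstm5 differ in their response was not tested, and probes of this family may cross-hybridise. Gstz1, the zeta class enzyme that also isomerises maleylacetoacetate in tyrosine breakdown, fell by 0.39 ± 0.09 (limma adjusted p = 0.011), a call that ended without HA-Fbxl10 replicate 3 (0.0515). Gsto1, the omega class enzyme, differed by 0.13 (-0.06 to 0.32). Gstt2 and Gstk1 were dim, at 4.29 and 2.78 in HA-Fbxl10 cells and 4.35 and 2.78 in control cells. Of 3 membrane-bound transferases, 1 fell. Mgst2, which also acts in leukotriene synthesis, had 6.57, 6.32 and 6.60 in HA-Fbxl10 arrays, against 6.74, 6.90 and 6.94 in control arrays (-0.36 ± 0.09, limma adjusted p = 0.019). The groups did not overlap, but the call ended when control replicate 2 (0.0586), control replicate 3 (0.0558) or HA-Fbxl10 replicate 2 (0.0561) was left out. Mgst3 differed by -0.28 with a wide interval of -0.61 to 0.06, and passed only without control replicate 2 (limma adjusted p = 0.0167) among the arrays left out in turn. Mgst1 was dim, at 3.02 in HA-Fbxl10 cells and 3.00 in control cells.

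Of 5 glutathione peroxidases 2 rose, 1 fell and 2 did not pass the test, and of 4 measured peroxiredoxins 1 rose and 3 did not pass. Gpx8, a membrane-bound glutathione peroxidase, had 10.94, 10.95 and 10.85 in HA-Fbxl10 arrays, against 10.40, 10.17 and 10.21 in control arrays. It was 1.57-fold higher (0.65 ± 0.08, SE, limma adjusted p = 0.00040), the largest rise among members. Prdx4, the peroxiredoxin that rose, had 9.88, 9.86 and 9.91 in HA-Fbxl10 arrays, against 9.47, 9.46 and 9.41 in control arrays. It was 1.35-fold higher (0.43 ± 0.06, limma adjusted p = 0.00092), with arrays close together in both groups. Gpx7, another glutathione peroxidase, was dim (4.53 in HA-Fbxl10 cells and 4.52 in control cells) and its difference of 0.01 had an interval of -0.27 to 0.30. Prdx1 and Prdx2 of the cytosol and Prdx3 of mitochondria differed by -0.03, -0.05 and -0.19 and did not pass, with limma adjusted p of 0.810, 0.695 and 0.0587.

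Gpx1 and Gpx4, the selenium-dependent peroxidases for hydrogen peroxide and for membrane lipid peroxides, moved in opposite directions. Gpx1 averaged 10.29 ± 0.02 in HA-Fbxl10 cells and 9.94 ± 0.11 in control cells (SD, n = 3 each), a rise of 0.36 ± 0.07 (SE, limma adjusted p = 0.0063). Gpx4 had 10.96, 10.94 and 10.87 in HA-Fbxl10 arrays, against 11.37, 11.29 and 11.33 in control arrays, a fall of 0.40 ± 0.06 (limma adjusted p = 0.0017). Its second probe set gave -0.44. Gpx3, the secreted plasma form, was dim at 3.45 in HA-Fbxl10 cells and 3.39 in control cells.

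Of 5 genes of the thioredoxin system 2 fell and 3 did not pass the test. Txnip, which binds and inhibits thioredoxin and restrains glucose uptake, had 7.89, 7.67 and 7.65 in HA-Fbxl10 arrays, against 9.36, 9.12 and 9.32 in control arrays. It was 2.88-fold lower (-1.53 ± 0.09, SE, limma adjusted p = 9.2e-06). Txn1, thioredoxin itself, averaged 12.59 ± 0.02 in HA-Fbxl10 cells and 12.60 ± 0.02 in control cells (SD, n = 3 each), and the interval of its difference was -0.14 to 0.13. Txnrd1, the cytosolic thioredoxin reductase, passed narrowly with a fall of 0.21 ± 0.06 (limma adjusted p = 0.041). Its call held only without control replicate 1 and ended without each of the other arrays in turn (0.0668 to 0.125). Txnrd2, the mitochondrial reductase, and Srxn1, which repairs overoxidised peroxiredoxins, differed by -0.22 and -0.12 (limma adjusted p of 0.0526 and 0.255). Of 13 further thioredoxin and glutaredoxin genes, 5 fell (Msrb1, Msrb3, Txnrd3, Glrx2 and Nxn), 1 rose (Msra) and 7 did not pass the test. The calls of Msra (0.09, limma adjusted p = 0.524), Txnrd3 (-0.17, 0.398) and Nxn (-0.20, 0.067) ended with the median of chromosomal neighbours subtracted.

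Superoxide and peroxide removal also split. Sod1, the cytosolic copper-zinc enzyme, had 11.27, 11.28 and 11.28 in HA-Fbxl10 arrays, against 11.70, 11.85 and 11.81 in control arrays. It was 1.42-fold lower (-0.51 ± 0.06, SE, limma adjusted p = 0.00059), with the smallest spread among HA-Fbxl10 arrays of any member (SD 0.008). Sod2, the mitochondrial manganese enzyme, differed by 0.11 (95% interval -0.04 to 0.26, limma adjusted p = 0.316), and the extracellular Sod3 was dim. Cat, the peroxisomal catalase, averaged 9.05 ± 0.06 in HA-Fbxl10 cells and 8.72 ± 0.12 in control cells (SD, n = 3 each). Its rise of 0.33 ± 0.08 (limma adjusted p = 0.016) lost its call without HA-Fbxl10 replicate 1 (0.0654).

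Of 4 measured genes of NADPH supply, which both glutathione and thioredoxin reductases need, 2 rose, 1 fell and 1 did not pass the test. Tkt, the transketolase of the non-oxidative branch, had 9.42, 9.47 and 9.33 in HA-Fbxl10 arrays, against 8.93, 8.73 and 8.89 in control arrays, and was 1.47-fold higher (0.56 ± 0.08, SE, limma adjusted p = 0.00082). Me1, the cytosolic malic enzyme, had 10.74, 10.77 and 10.74 in HA-Fbxl10 arrays, against 10.27, 10.30 and 10.34 in control arrays, and was 1.36-fold higher (0.45 ± 0.06, limma adjusted p = 0.00078). Its second probe set gave 0.42. Pgd, 6-phosphogluconate dehydrogenase, which makes NADPH in the oxidative branch, averaged 10.31 ± 0.04 in HA-Fbxl10 cells and 10.70 ± 0.03 in control cells (SD, n = 3 each), a fall of 0.39 ± 0.06 (limma adjusted p = 0.0018). Taldo1, the transaldolase, differed by -0.17 (95% interval -0.36 to 0.02). G6pdx, which opens the oxidative branch, is not among the measured genes, so that branch is seen here only through Pgd. Of 9 further genes of NADPH supply, 1 passed the test, Nadk, the NAD kinase, which fell by 0.32 (limma adjusted p = 0.0055), a call that ended with the median of its chromosomal neighbours subtracted (0.362). Nadk and the further thioredoxin and glutaredoxin genes were also named after their values were seen.

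Members widely used as Nrf2 targets thus stood on both sides of zero. Gclc (0.59), Tkt (0.56), Me1 (0.45) and Gclm (0.39) were higher in HA-Fbxl10 cells, while Nqo1 (-1.56), Gsta4 (-0.82), Gstm1 (-0.42), Pgd (-0.39) and Txnrd1 (-0.21) were lower (log2 fold changes). Hmox1 (0.29), Srxn1 (-0.12), Prdx1 (-0.03) and Taldo1 (-0.17) did not pass the test. This split depends on which genes are listed, and Blvrb (-0.97) and Gstp1 (-0.42) also fell. The calls of Gclm, Gstp1 and Txnrd1 ended with the median of chromosomal neighbours subtracted. Of 16 further detoxification genes, Cbr3 (-0.98), Ptgr1 (-0.53), Akr1b8 (-0.48), Aldh3a1 (-0.45) and Ephx1 (-0.33) fell. Akr1c13 (1.02), Ugdh (0.32) and Aldh1a1 (0.26) rose, and 8 did not pass. Apart from Cbr3 and Akr1c13, these were picked out once their values were known. Subtracting the median of chromosomal neighbours ended the calls of Ugdh (0.06, limma adjusted p = 0.642) and Akr1b8 (-0.32, 0.0859). Cbr3, Ptgr1 and Ephx1 kept theirs. Aldh3a1 was dim, with a mean level of 4.93 over all arrays. Aldh1a1, at 3.69, lay below the lower quartile of all genes (3.75), so the sizes of these 2 changes are uncertain.

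Changes of members were set beside those of their chromosomal neighbours. Among members above the median level, the median log2 fold change of the 31 nearest such genes, the member included, had the same sign as the member's own change for 21 of the 23 that passed the test (91.3%), against 80.6% of the 3689 genes of all kinds that passed at that level. For members that did not pass the sign was the same in 12 of 17 (70.6%), against 65.2% of all such genes. The neighbours' median was at least 1/3 of the member's own change, with the same sign, for 11 of the 23 (47.8%), against 45.5% of all genes that passed, and for Blvrb (-0.01), Gss (-0.02) and Gstm1 (-0.02) the neighbours' median was near zero. The exceptions were the members Nqo1 and Gsta4, which fell among neighbours with medians of 0.19 and 0.31. Gsta4 shares chromosome 9 with Gclc, Gpx1, Me1 and Keap1. Of the genes above the median level on that chromosome, 263 of 573 were higher and 28 lower, with a median of 0.22, and Gclc (0.59), Me1 (0.45) and Gpx1 (0.36) were among those that rose. Chromosome 3 carries Txnip, Gclm, Mgst2, Gstm1, Gstm2 and Gstm5, and 228 of its 471 genes above the median level were lower and 33 higher, with a median of -0.23. Gclm was the 1 member that rose there, though the median of its own neighbours was 0.19.

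**Figure D3:**
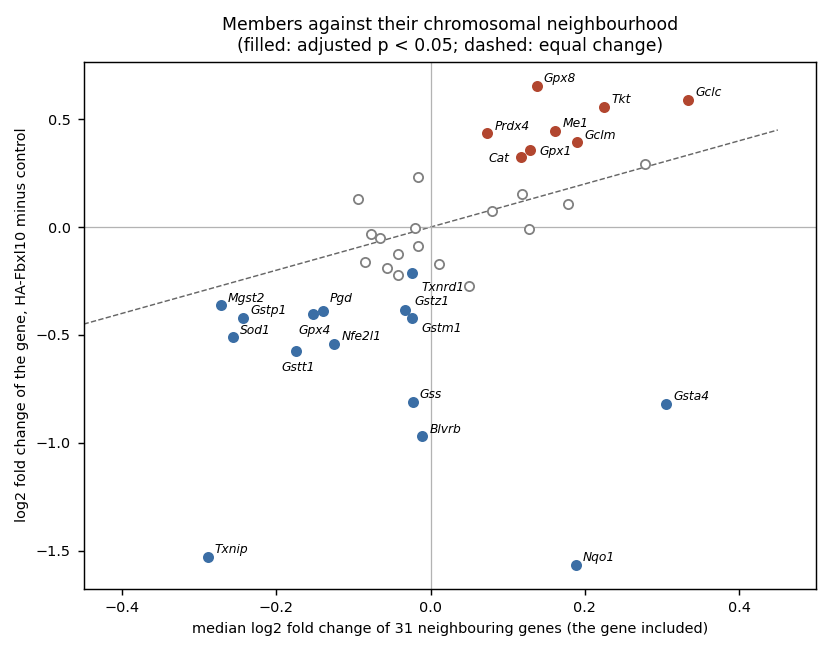
Log2 fold change of each of the 40 members above the median level (y axis) against the median log2 fold change of its 31 chromosomal neighbours (x axis), with a dashed line where both are equal. Filled points passed the test. Nqo1 and Gsta4 lie in the lower right, opposite in sign to their neighbours, and Mgst2 lies near the dashed line.

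With that neighbourhood median subtracted, 17 of 46 members passed (37%), 5 higher and 12 lower, and all 17 were among the 23 called before. The background in that fit was 15.4% of all genes. The median was subtracted only for genes above the median level, and the share among those genes was not computed. Brighter genes pass more often, so this background is not matched to the members in level. Subtraction moved Nqo1 to -1.75 and Gsta4 to -1.12, and left Blvrb (-0.96) and Gss (-0.79) close to their original values. Txnip remained lower at -1.24, Gpx8 higher at 0.52 and Prdx4 higher at 0.36. The rises of Gclc (0.26), Tkt (0.33) and Me1 (0.28) and the falls of Sod1 (-0.25), Gpx4 (-0.25) and Pgd (-0.25) shrank by over 1.5 times but stayed past the test. The calls of Gclm (0.20, limma adjusted p = 0.108), Gpx1 (0.23, 0.0631), Cat (0.21, 0.118), Gstp1 (-0.18, 0.266), Mgst2 (-0.09, 0.610) and Txnrd1 (-0.19, 0.0813) ended. With the median of the whole chromosome subtracted in its place, Gstm1 (-0.19, 0.291), Gstp1 (-0.30, 0.0528), Mgst2 (-0.13, 0.40), Gpx1 (0.14, 0.237) and Txnrd1 (-0.10, 0.344) lost their calls. Copy number was not measured, and its part in these shifts was not tested.

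Other genes of the same pathways were taken from a list of 87, also made with earlier results known, of which 82 were measured. Of these 10 rose, 24 fell and 48 did not pass the test, a share of 41.5% against the background of 21.1%, with a median log2 fold change of -0.09. Above the median level 30 of 63 passed (47.6%), against 37.0% of all genes there. Cystine supply held the largest fall. Cth, which makes cysteine for glutathione, had 8.17, 8.16 and 8.18 in HA-Fbxl10 arrays, against 9.32, 9.39 and 9.47 in control arrays (-1.22 ± 0.06, SE, limma adjusted p = 4.1e-06). Slc7a11, the light chain of the cystine importer, had 6.76, 6.91 and 6.93 in HA-Fbxl10 arrays, against 7.59, 7.73 and 7.94 in control arrays (-0.89 ± 0.10, limma adjusted p = 0.00023). In its class of cystine supply and glutathione turnover 5 of 13 fell and 8 did not pass the test. Both genes lie on chromosome 3, and with their neighbours' medians of -0.42 and -0.32 subtracted the differences shrank to -0.80 and -0.57 and stayed past the test (limma adjusted p of 5.5e-05 and 0.0036).

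Small Maf genes, whose proteins pair with Nrf2 or Bach1, rose in part. Maff had 6.79, 7.18 and 7.25 in HA-Fbxl10 arrays, against 5.87, 5.96 and 6.02 in control arrays, and was higher by 1.12 ± 0.12 (SE, limma adjusted p = 0.00018). Mafk was higher by 0.51 ± 0.06 and Mafg differed by -0.06, while Bach1 was lower by 0.51 ± 0.07 and Sqstm1, a Keap1-binding autophagy receptor, by 0.46 ± 0.06. These last 4, outside the rule for named genes, were chosen after their values were seen. In the class of Nrf2 complex and turnover genes 3 of 10 rose and 2 fell, Cul3 (0.21), the scaffold of the Keap1 ubiquitin ligase, being the remaining rise. With the neighbourhood median subtracted Bach1 was at -0.26 (limma adjusted p = 0.042), and the call of Cul3 ended (0.0743).

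Among detoxification genes 3 of 16 rose and 5 fell. Cbr3, a carbonyl reductase, had 6.98, 6.99 and 6.99 in HA-Fbxl10 arrays, against 7.97, 7.89 and 8.03 in control arrays (-0.98 ± 0.06, SE, limma adjusted p = 1.5e-05), and its difference was -0.62 with the neighbourhood median subtracted. Akr1c13, an aldo-keto reductase with close copies, was higher by 1.02 ± 0.07 (limma adjusted p = 2.5e-05). Its levels, 4.65 ± 0.07 in HA-Fbxl10 cells and 3.63 ± 0.09 in control cells (SD, n = 3 each), were dimmer than the median gene, and in control cells dimmer than the lower quartile (3.75), so the size of its rise is uncertain.

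Of 10 further genes of superoxide and peroxide handling, 2 rose, 4 fell and 4 did not pass the test. Sesn1 and Sesn2, stress-induced sestrins, averaged 7.46 ± 0.03 and 6.52 ± 0.08 in HA-Fbxl10 cells, against 8.50 ± 0.11 and 7.25 ± 0.04 in control cells, lower by 1.04 and 0.72 (limma adjusted p of 1.9e-05 and 0.00011). Nox4, an NADPH oxidase that makes hydrogen peroxide, averaged 6.95 ± 0.07 in HA-Fbxl10 cells and 6.28 ± 0.10 in control cells and was higher by 0.68 (limma adjusted p = 0.00028). Ccs, the copper chaperone of Sod1, fell by 0.45 beside Sod1 and was singled out after its value was seen, and its call ended with the neighbourhood median subtracted (limma adjusted p = 0.0709).

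**Figure D4:**
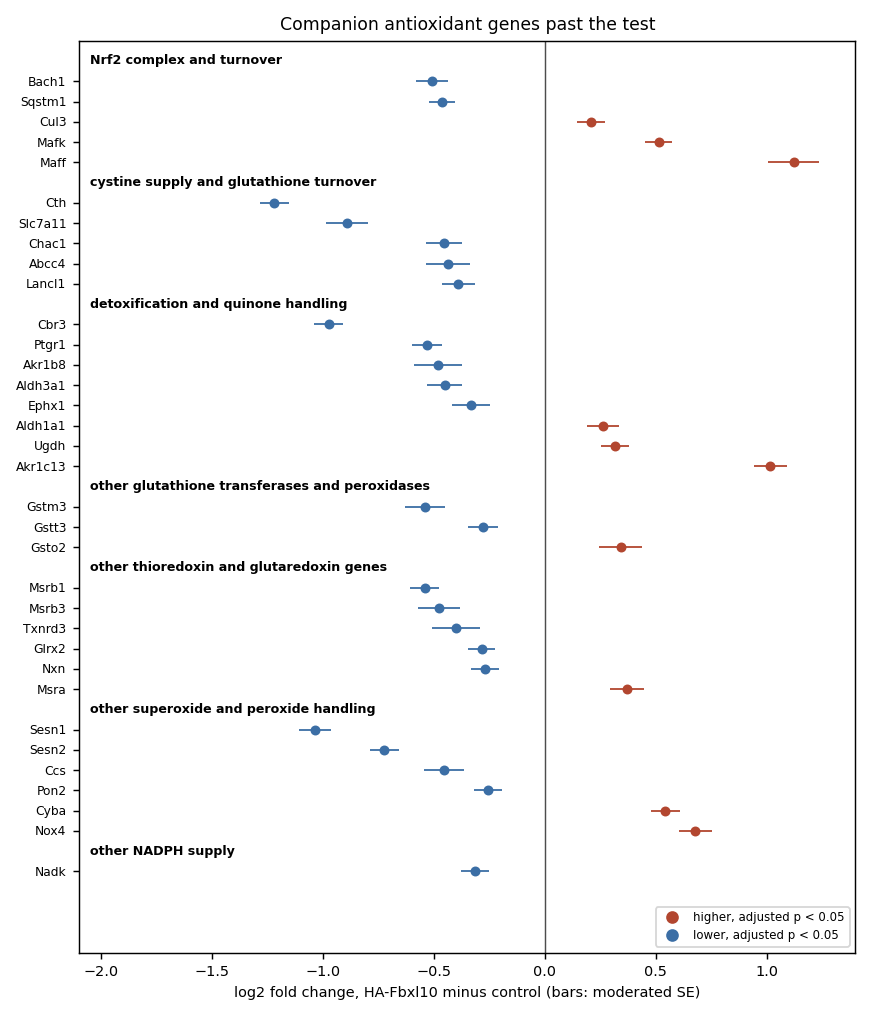
Log2 fold change (x axis, HA-Fbxl10 minus control, bars moderated SE) of the 34 further antioxidant genes that passed the test, grouped by class down the page. Red points are the 10 that rose and blue points the 24 that fell, with Cth lowest and Maff highest.

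Replicate arrays of the control group varied more over the members than those of the HA-Fbxl10 group, with a median SD of 0.06 in HA-Fbxl10 cells and 0.10 in control cells (n = 3 each). Over genes above the median level these were 0.07 and 0.08. Control replicate 2 gave the lowest control value for 28 of 46 members (60.9%), against 46.1% of genes above the median level. Nqo1, Txnip, Blvrb and Gclc were among these 28, and all 4 kept their calls without that array.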

How the data were processed

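RNA of 6 samples was hybridised to Affymetrix arrays, with 300 ng of RNA per array per the labels' protocols. The deposited table holds log2 values of 35556 probe sets, which the authors obtained by RMA, as the submitters' processing notes name it. No source used here gives its version, settings or genome build. No detection calls, batches or scan dates were used. The platform annotation names 1 gene for 21789 probe sets, several for 1621 and none for 12146 (unnamed here). RefSeq of GRCm38.p6 gave current symbols, by Entrez number for 21698 probe sets and by accession for 3, while 88 kept the old one. Of 19936 genes, 1001 had several probe sets.

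The test was limma's (version 3.58.1, R 4.3.3), with lmFit and eBayes, two-sided. In simulated data with the means and spreads of these arrays (19936 genes), 200 genes were changed. There 81% of log2 changes of 0.5 and 96% of those of 1 were found, and 4 of 183 calls were false. In the real comparison 4208 genes passed, so these rates may not carry over to it. Promoter windows came from the RefSeq table, and figures were drawn with matplotlib 3.10.9. The members and lists were chosen with earlier results of these data known. Every array's value is given for the regulators, for members past the threshold with an absolute log2 fold change of at least 0.4 and for the most changed member of each class. The 8 most changed further genes were named. The number of arrays limits the precision. Other settings tried were 2 normalisations, a filter on dim genes, averaging probe sets, variance trends, array weights, a replicate block, leaving out each array, a stricter threshold and removal of regional shifts.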

Additional observations from a re-analysis of the deposited data

How the results depend on the processing

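Under 16 other settings of the fit, all 23 members that passed kept their direction, and 15 kept their call in each setting. Members past the threshold numbered 17 to 28 over these settings and 20 to 24 with single arrays left out. The variance trend gave 28 and added Hmox1, Fth1, Gsr, Gstm5 and Prdx3. With numbers as a replicate block, Txnrd1 lost its call (adjusted p = 0.0832), Sod3 gained one (0.0492), and 23 members, 32 further genes and 3397 of all genes passed. Same-numbered arrays had deviations correlated at 0.085, -0.28 and -0.093, and arrays of unlike number at -0.22 to 0.28. No pairing by number was seen, but with 3 arrays a group these correlations cannot exclude it. At an adjusted p of 0.01, 17 members and 2536 of all genes passed, against 4208 of all genes. Members higher numbered 5 with the neighbourhood median removed. In the main fit class medians were -0.0092 (regulators), -0.57 (quinone, haem and iron), 0.27 (glutathione synthesis), -0.24 (soluble transferases) and -0.28 (membrane-bound transferases). The remaining ones were 0.056 (peroxidases), -0.21 (thioredoxin system), -0.042 (peroxiredoxins), -0.076 (superoxide removal) and 0.14 (NADPH supply). With array medians subtracted class medians were 0.046 (regulators), 0.33 (glutathione synthesis), -0.18 (soluble transferases), -0.16 (thioredoxin system), 0.013 (peroxiredoxins), -0.021 (superoxide removal) and 0.19 (NADPH supply). With quantile normalisation those of glutathione synthesis and the thioredoxin system were 0.23 and -0.17. Without the dimmest 30% of genes, where fewer members were tested, those of soluble transferases, peroxidases and superoxide removal were -0.39, 0.19 and 0.11, the last against -0.08 with all genes. With chromosome medians removed they were -0.14 (regulators), 0.20 (glutathione synthesis), -0.13 (soluble transferases), -0.13 (membrane-bound transferases), -0.15 (thioredoxin system), -0.11 (superoxide removal) and 0.020 (NADPH supply). With the neighbourhood median removed they were -0.14 (regulators), 0.12 (glutathione synthesis), -0.13 (soluble transferases), -0.091 (membrane-bound transferases), 0.030 (peroxiredoxins), -0.16 (superoxide removal) and 0.051 (NADPH supply). With single arrays left out they ran between -0.084 and 0.040 (regulators), -0.25 and -0.17 (thioredoxin system), -0.12 and -0.022 (superoxide removal), 0.095 and 0.16 (NADPH supply), and -0.35 and -0.18 (membrane-bound transferases).

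Signs turned in members that had not passed, and in none that had. With array medians subtracted these were Nfe2l2 (0.046), Gstk1 (0.054), Txn1 (0.051), Prdx1 (0.024) and Prdx2 (0.0018), with quantile normalisation Gstk1 (0.0028), and with array weights Gstk1 (0.011) and Txn1 (0.0022). With chromosome medians removed they were Keap1 (-0.14), Gstm2 (0.14), Txn1 (0.080) and Prdx1 (0.052), and with the neighbourhood median removed Keap1 (-0.0047), Txn1 (0.017), Prdx1 (0.047), Prdx2 (0.013) and Sod2 (-0.069). With single arrays left out Nfe2l2 ran between -0.084 and 0.040, Gstk1 between -0.050 and 0.061, Txn1 between -0.013 and 0.0085, Mgst1 between -0.018 and 0.057 and Gpx7 between -0.12 and 0.091. No sign turned with the dim-gene filter. Removing a median subtracts a fixed amount from a member's difference, which by itself can carry small differences across zero. The cause of the other turns was not tested.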

Other observations

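Probe sets that name Gsta1, Gsta2 and 2 further genes together were outside the comparison because they name several genes. All 4 were lower in HA-Fbxl10 cells, with log2 differences of -1.41, -1.25, -0.78 and -0.87. The one with the largest difference had 4.24 ± 0.11 in HA-Fbxl10 cells and 5.66 ± 0.31 in control cells (SD, n = 3 each). They may share probes, their HA-Fbxl10 levels were dimmer than the median gene (5.36), and they were not tested. The 4 probe sets that name Ftl1, a ferritin light chain gene, with microRNA genes had log2 differences of -0.12 to -0.19. The Gstt2 values of HA-Fbxl10 replicate 3 and of control replicates 1 and 2 were equal (4.34).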
